A study of Homo sapiens with 9 samples.

Results

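The endoplasmic reticulum (ER) folds, glycosylates and disulfide-bonds the secreted and membrane proteins of a cell, and the 32 genes described here encode its chaperones, its folding enzymes, part of its translocation and degradation machinery, and sensors of the unfolded protein response. They were chosen by gene symbol, with earlier results of these data known. All 32 were found among the 26190 usable rows of the expression table, and all 32 passed the filter on low values, which kept 11737 genes. The RNA came from Jurkat, a long-established cell line of human T-cell leukaemia, and the 9 libraries were made with an mRNA kit from cultures in exponential growth. With 3 libraries each, called biological triplicates by the submitters, the groups were the line labelled EZH2-WT (WT) and 2 lines edited with CRISPR/Cas9 (EZH2-KO1, here KO1, and EZH2-KO2, here KO2). The labels name no drug treatment. Whether each edited line is a single clone is not given in the sources used here. Each p-value rests on the scatter among cultures of the same line, pooled over WT, KO1 and KO2, and not on scatter among independent edits. EZH2 is the catalytic subunit of a Polycomb complex that methylates histone H3, and the series title concerns the sensitivity of EZH2-deficient leukaemia to inhibitors of the checkpoint kinase CHK1. The comparisons ask how the ER folding genes of each edited line differed from those of WT, and whether the edited lines differed from each other.

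Unfolded proteins in the ER draw the chaperone BiP (the product of HSPA5) away from membrane sensors, of which IRE1 (encoded by ERN1), ATF6 and PERK (encoded by EIF2AK3) are the main ones. IRE1 splices XBP1 mRNA into a form that encodes an active transcription factor, ATF6 is cut in the Golgi to release another, and both bind promoters of chaperone and degradation genes; PERK slows translation and favours ATF4. Lymphocytes rely on this system when they secrete or display much protein, as plasma cells do, and T cells use it during activation.

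The promoters are shown first, because 10 of the genes hold 1 of 2 elements that are rare among promoters at large. The ER stress response element (ERSE) has the letters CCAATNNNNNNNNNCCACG and ERSE-II the letters ATTGG and CCACG with 1 base of any kind (N) between them. Both were described in promoters of this gene class, and both were searched on both strands of RefSeq windows (GRCh38.p14) that run from 250 bases before to 50 bases after each annotated start. Only exact matches to the fixed letters were counted, so a window without a match may still hold a variant of an element. Windows were held for 30 of the 32 genes, all but PDIA3 and DERL1. ERSE was found in 7 of these 30 genes and in 25 of all 27305 genes with a window (0.0916%; 27 of 35116 windows, or 0.0769%). ERSE-II was found in 3 of the 30 genes and in 19 of all 27305 (0.0696% of genes; 19 windows, or 0.0541%). No gene of the 30 held both. In the sites below, each written 5′ to 3′ in the direction of the element, capitals mark the fixed letters and lower case the spacer.
CALR, ERSE: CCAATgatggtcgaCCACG
CANX, ERSE: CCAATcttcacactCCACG
HSPA5, ERSE: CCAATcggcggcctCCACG
HSP90B1, ERSE, upstream site: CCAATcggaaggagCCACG
HSP90B1, ERSE, downstream site: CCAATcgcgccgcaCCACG
PDIA6, ERSE: CCAATgagccgcagCCACG
CRELD2, ERSE: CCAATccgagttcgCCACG
XBP1, ERSE: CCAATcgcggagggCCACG
HYOU1, ERSE-II, at each of 2 sites: ATTGGaCCACG
HERPUD1, ERSE-II: ATTGGgCCACG
SDF2L1, ERSE-II: ATTGGtCCACG

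Whole windows are shown for the genes that the results below turn on: CALR and HSPA5, which rose, HYOU1, which also rose and holds 2 ERSE-II sites, CRELD2, which holds ERSE and did not pass the test, and EDEM1, which fell and holds none of the motifs searched. Capitals mark motif matches. A match read on the opposite strand appears as its reverse complement, so ERSE in CALR and CRELD2 begins with CGTGG and ends with ATTGG. The windows lie at chr19:12938359-12938658 (plus strand) for CALR, chr9:125241294-125241593 (minus strand) for HSPA5, chr11:119057156-119057455 (minus strand) for HYOU1, chr22:49918384-49918683 (plus strand) for CRELD2 and chr3:5187457-5187756 (plus strand) for EDEM1. The sequences are those of RefSeq on GRCh38.p14, whereas the expression values were made on hg19, so only gene names join them. In HYOU1 the upstream ERSE-II overlaps a match to another element, UPRE, searched on both strands as TGACGTGG, which was found in 2 of the 30 genes (HYOU1 and TXNDC5) and in 0.927% of all genes (0.729% of windows).
CALR: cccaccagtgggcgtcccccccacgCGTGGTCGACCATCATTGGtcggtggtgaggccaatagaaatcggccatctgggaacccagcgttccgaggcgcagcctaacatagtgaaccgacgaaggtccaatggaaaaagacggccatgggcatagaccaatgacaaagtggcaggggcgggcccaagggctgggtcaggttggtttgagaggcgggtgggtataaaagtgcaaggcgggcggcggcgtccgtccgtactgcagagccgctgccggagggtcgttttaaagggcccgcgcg
HSPA5: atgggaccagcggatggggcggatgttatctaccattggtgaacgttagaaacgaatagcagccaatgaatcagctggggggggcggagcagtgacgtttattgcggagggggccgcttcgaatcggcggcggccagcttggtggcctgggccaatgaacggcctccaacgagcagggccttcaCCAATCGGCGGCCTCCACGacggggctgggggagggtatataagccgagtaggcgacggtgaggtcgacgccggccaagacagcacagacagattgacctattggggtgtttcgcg
HYOU1: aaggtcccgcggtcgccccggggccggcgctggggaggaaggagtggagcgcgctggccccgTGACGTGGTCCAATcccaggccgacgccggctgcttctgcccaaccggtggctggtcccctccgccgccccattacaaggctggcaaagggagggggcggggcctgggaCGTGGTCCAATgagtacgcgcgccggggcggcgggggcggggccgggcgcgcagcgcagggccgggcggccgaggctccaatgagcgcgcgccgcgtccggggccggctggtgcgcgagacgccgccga
CRELD2: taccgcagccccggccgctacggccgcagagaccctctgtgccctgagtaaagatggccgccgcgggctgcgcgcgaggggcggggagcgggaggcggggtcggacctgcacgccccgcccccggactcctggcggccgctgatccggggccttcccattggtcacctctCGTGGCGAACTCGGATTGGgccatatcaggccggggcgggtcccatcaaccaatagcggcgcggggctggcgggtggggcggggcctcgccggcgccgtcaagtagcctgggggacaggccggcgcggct
EDEM1: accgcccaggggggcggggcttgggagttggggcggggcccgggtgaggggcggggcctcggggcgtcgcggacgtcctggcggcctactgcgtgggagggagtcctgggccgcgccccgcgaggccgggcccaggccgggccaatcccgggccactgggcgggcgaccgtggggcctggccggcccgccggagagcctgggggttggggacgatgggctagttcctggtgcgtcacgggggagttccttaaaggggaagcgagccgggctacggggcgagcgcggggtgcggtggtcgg

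The libraries were close to each other in relative depth, as far as it could be read from the values. Values are fragments per kilobase of transcript, scaled to sequencing depth (FPKM), and the level of each gene is given as mean ± SD over 3 libraries. Relative depth, read from the commonest ratio of low values, ran from 0.964 to 1.17 of that of WT replicate 3. The sums of FPKM ran from 417737 to 439704, but since FPKM is scaled to depth these sums do not show library size. The number of reads per library is unknown. EZH2, the edited gene, had 77.2 ± 2.54 FPKM in WT against 106 ± 2.5 in KO1 and 89.5 ± 1.4 in KO2; since CRISPR edits can spare the transcript, these levels do not check the labels. Of the T-lymphocyte markers, all 10 were at 1 FPKM or more in 3 or more libraries, whereas of the B-lymphocyte and plasma cell markers 2 of 11 were (CD79A and MZB1), of the myeloid markers 2 of 8 and of the fibroblast and epithelial markers 1 of 9. PAX5 and TNFRSF17, defining genes of B and plasma cells, were listed at 0 in all 9 libraries. The summed level of the T-lymphocyte markers was 1514 to 1621 FPKM in WT against 1298 to 1437 in KO1, below the WT range, and 1522 to 1558 in KO2. That of the B-lymphocyte and plasma cell markers was 108 to 123 FPKM in WT against 128 to 147 in KO1, above the WT range, and 122 to 123 in KO2. Single markers moved apart. By mean FPKM, CD2, CD3G and CD7 were higher in KO1 than in WT and the other T-lymphocyte markers lower. In KO2, CD3E, CD3G and CD7 were higher and the others lower. CD2 had 35.8 ± 0.774, 90.6 ± 3.59 and 4.38 ± 0.789 FPKM in WT, KO1 and KO2. CD79A was higher in KO1 (54.9 ± 5.52 against 27.5 ± 2.57 FPKM in WT) and MZB1 lower (82.4 ± 5.1 against 88.2 ± 5.28). These genes were named after their values were seen. The part of these shifts in the results below was not tested.

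In both edited lines most of the ER folding genes were higher than in WT, and the 21 that rose in both did so by 1.21 to 3.02 times in mean FPKM, while WT had 3.94 and 3.98 times the EDEM1 of KO1 and KO2. Fold changes are on the log2(FPKM + 1) scale, with their standard errors, and a gene was called where the limma p-value, adjusted over all 11737 genes by the Benjamini-Hochberg method, was under 0.05. In KO1, 23 of the 32 genes rose and 2 fell, where 35.6% of all tested genes rose and 31.9% fell (67.5% in either direction). In KO2, 22 rose and 2 fell, where 38.1% of all tested genes rose and 26.6% fell (64.7% in either direction). By the plain criterion that the 3 values of one group all lie beyond the 3 of the other, 23 genes were higher and 2 lower in KO1, where 36.2% of tested genes were higher and 32.4% lower (68.6% in all). In KO2, 24 were higher and 2 lower by that criterion, where 40.3% were higher and 28.8% lower (69.2% in all). The log2 fold change was above 0 for 27 genes in KO1 and 29 in KO2, and for 51.8% and 56.6% of all tested genes. The median log2 fold change of the 32 genes was 0.37 in KO1, beside 0.02 for all tested genes, and 0.37 in KO2, beside 0.06. The comparisons share the 3 WT libraries. Since the 32 genes were chosen with earlier results of these data known, their shares beside those of all tested genes are a description, not a test. Of the 32 genes, 21 rose in both lines, 2 (EDEM1 and ATF6) fell in both, 2 passed in KO1 alone, 1 in KO2 alone, and 6 in neither. Among all 11737 tested genes, 3525 (30.0%) rose in both lines. In bulk RNA from a culture, a lower level from fewer cells with the transcript cannot be told apart from less transcript per cell.

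**Figure D1:**
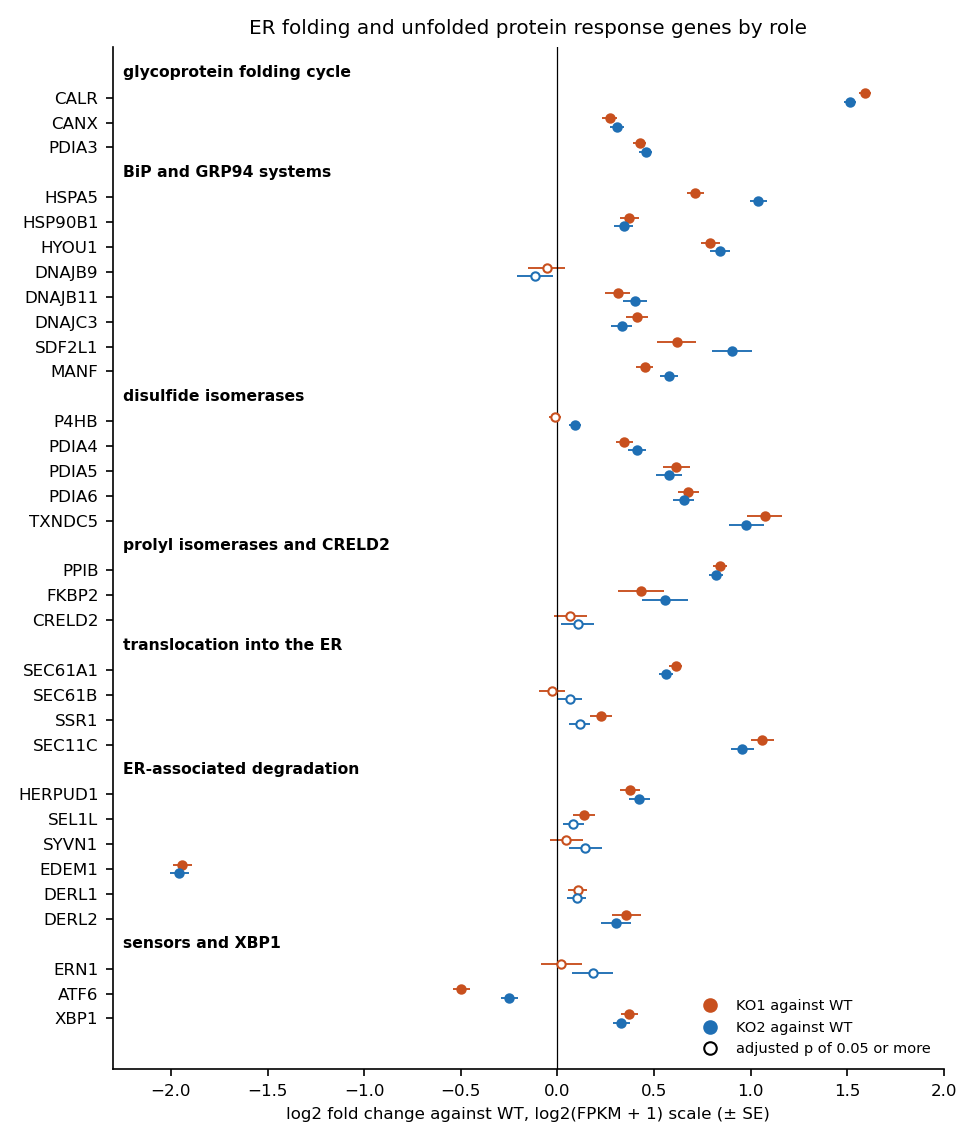
Log2 fold change against WT on the log2(FPKM + 1) scale (x axis) for each of the 32 genes, grouped by role, in KO1 (orange) and KO2 (blue); bars are standard errors and open points have an adjusted p of 0.05 or more. CALR stands furthest right at 1.59 and 1.51, and EDEM1 furthest left at -1.94 and -1.96.

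**Figure D2:**
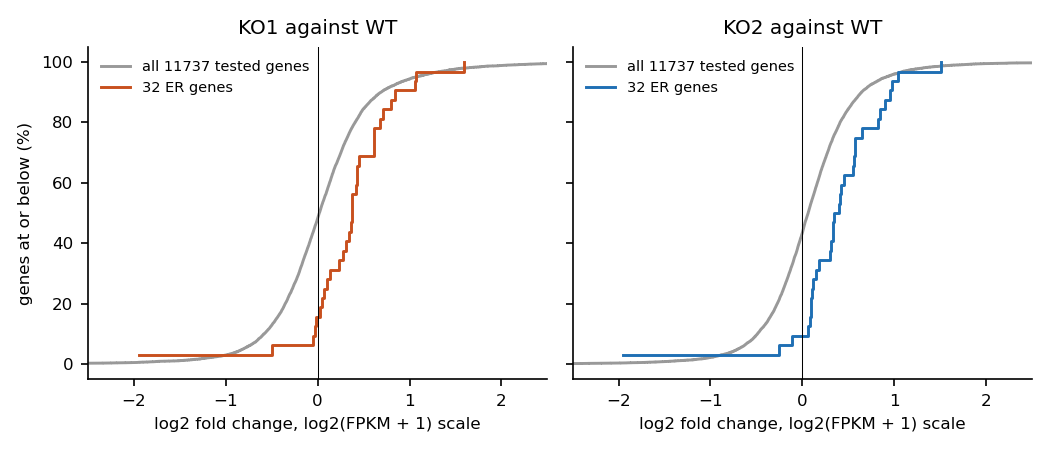
Cumulative share of genes (y axis, percent) at or below each log2 fold change (x axis, shown to 2.5 on either side) for all 11737 tested genes (grey) and the 32 ER genes (coloured), in each edited line. The ER genes lie to the right over most of their range, with medians of 0.37 in both lines, and EDEM1 and ATF6 form the left tail.

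The transcripts of the 32 genes also made up more of each edited library. Summed, they took 0.516% ± 0.0114 of all FPKM in WT against 0.832% ± 0.00732 in KO1 and 0.802% ± 0.018 in KO2. CALR alone went from 0.0797% to 0.2503% and 0.2294%. Without CALR the share was 0.436% ± 0.0125 in WT, 0.581% ± 0.00956 in KO1 and 0.573% ± 0.0117 in KO2, so the other 31 genes also took a larger share in each edited library than in any WT library.

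The calnexin and calreticulin cycle holds newly made glycoproteins in the ER until they fold. CALR, the soluble lectin chaperone calreticulin, stood at 341, 348 and 354 FPKM in the WT libraries, at 1078, 1033 and 1040.1 in KO1 and at 979, 995 and 1011 in KO2. It was already above 98.7% of tested genes in WT, and its groups did not overlap (log2 fold change 1.59 ± 0.03, limma adjusted p = 6.36e-11 in KO1, and 1.51 ± 0.03, adjusted p = 1.93e-10 in KO2). CANX, the membrane-bound partner calnexin, went from 238, 222 and 219 FPKM in WT to 268, 273 and 279.99 in KO1 and to 282, 275 and 285 in KO2. All edited libraries lay above all WT libraries, and the log2 fold changes were 0.27 ± 0.04 (limma adjusted p = 0.000103) and 0.31 ± 0.04 (adjusted p = 4.67e-05). PDIA3, the disulfide isomerase that works with both lectins, stood at 77.9, 77.7 and 75.4 FPKM in WT, 104, 103 and 105 in KO1 and 105, 105 and 108 in KO2. It rose in both lines (0.43 ± 0.03 and 0.46 ± 0.03). The table also holds its pseudogene PDIA3P1, with which it may share reads.

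BiP and GRP94 are the ER members of the HSP70 and HSP90 chaperone families. HSPA5, which encodes BiP, stood at 56.4, 53.4 and 52.0 FPKM in WT, at 90.03, 86.4 and 90.7 in KO1 and at 109, 109.9 and 117 in KO2. The 3 groups did not overlap, with WT lowest and KO2 highest, and the mean was 1.65 times WT in KO1 (log2 fold change 0.71 ± 0.04, limma adjusted p = 1.89e-07) and 2.08 times in KO2 (1.04 ± 0.04, adjusted p = 2.04e-08). HSP90B1, which encodes GRP94 and has 2 ERSE sites, went from 257, 235 and 235 FPKM to 308, 306 and 328 in KO1 and 292, 314 and 317 in KO2. The edited libraries all lay above WT (0.37 ± 0.05 and 0.34 ± 0.05). HYOU1, a large HSP70-like protein that exchanges nucleotide on BiP, stood at 43.8, 48.6 and 49.3 FPKM in WT, 85.3, 83.5 and 78.6 in KO1 and 84.9, 85.9 and 85.1 in KO2, with no edited library near the WT range.

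SDF2L1, which keeps a BiP complex active, stood at 8.07, 9.10 and 11.4 FPKM in WT, 14.4, 14.2 and 16.4 in KO1 and 19.2, 18.6 and 17.7 in KO2, so the edited libraries all lay above WT and those of KO2 above those of KO1. MANF, a small ER protein that binds BiP and is released under stress, rose from 71.9 ± 2.79 FPKM to 98.6 ± 1.64 and 108 ± 5.34. The J-domain proteins DNAJB11 and DNAJC3, which bring clients to BiP, rose from 45.1 ± 3.97 to 56.2 ± 0.237 and 59.9 ± 3.88 and from 13.5 ± 0.411 to 18.4 ± 1.13 and 17.3 ± 0.566 FPKM. DNAJC3-AS1, an antisense gene, is also in the table, and without strand information its reads and those of DNAJC3 cannot be told apart. DNAJB9, a J-domain protein known as a target of the IRE1 and XBP1 arm and a repressor of IRE1, did not pass the test. Its values were 8.37, 6.88 and 7.51 FPKM in WT, 6.46, 7.55 and 7.77 in KO1 and 7.75, 6.33 and 6.68 in KO2, with overlapping groups and log2 fold changes of -0.06 ± 0.09 (adjusted p = 0.618) and -0.12 ± 0.09 (adjusted p = 0.300).

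**Figure D3:**
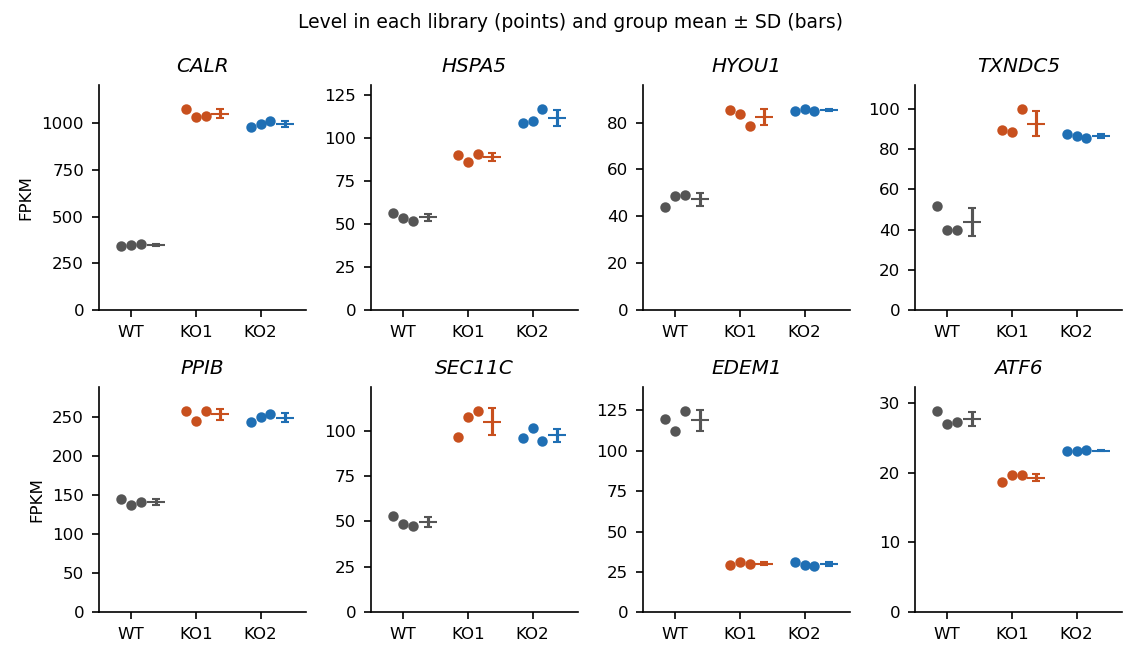
FPKM (y axis, from 0) of 8 genes in each library (points) with the group mean and SD (bars) for WT (grey), KO1 (orange) and KO2 (blue). In 6 panels all edited libraries lie above WT, in the panels of EDEM1 and ATF6 they lie below, and HSPA5 and ATF6 also differ between KO1 and KO2.

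Protein disulfide isomerases form and rearrange disulfide bonds. Of the 5 listed here, 4 rose in KO1 and 5 in KO2, where 35.6% and 38.1% of all tested genes rose. TXNDC5 had the largest fold change among them, from 51.8, 39.7 and 39.8 FPKM in WT to 89.7, 88.3 and 100.01 in KO1 and 87.7, 86.3 and 85.5 in KO2 (log2 fold change 1.07 ± 0.09 and 0.98 ± 0.09). Its reads may be divided with the read-through transcript BLOC1S5-TXNDC5, which stood at 1.81, 11.9 and 12.1 FPKM in WT and was low in the library where TXNDC5 was high. The sum of both was 52.3 ± 1.1 FPKM in WT against 107 ± 2.59 in KO1 and 96.0 ± 0.729 in KO2, or 2.05 and 1.84 times WT. PDIA6 rose from 97.9 ± 7.02 FPKM to 157 ± 8 in KO1 and 154 ± 1.56 in KO2, PDIA5 from 14.5 ± 1.55 to 22.7 ± 0.654 and 22.1 ± 0.616, and PDIA4 from 58.4 ± 3.46 to 74.5 ± 1.43 and 78.0 ± 0.585. P4HB, which encodes the founding member PDI and also serves as a subunit of collagen prolyl hydroxylase, was called in KO2 alone. Its values were 154, 159 and 156 FPKM in WT, 153, 156 and 155 in KO1 and 169, 169 and 161 in KO2, with log2 fold changes of -0.01 ± 0.03 (limma adjusted p = 0.744) and 0.09 ± 0.03 (adjusted p = 0.0293). In KO2, P4HB no longer passed when the fit left out WT replicate 1 (adjusted p = 0.0623), WT replicate 3 (0.0702), KO2 replicate 1 (0.104) or KO2 replicate 2 (0.0993), or after centring libraries on their median (0.237).

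The prolyl isomerase PPIB (cyclophilin B) rose in both lines and FKBP2, of the other isomerase family, did so with more scatter. PPIB stood at 145, 137 and 141 FPKM in WT, 258, 246 and 258 in KO1 and 244, 251 and 254 in KO2, well apart (log2 fold change 0.84 ± 0.04, limma adjusted p = 1.23e-08, and 0.82 ± 0.04, adjusted p = 2.58e-08). FKBP2 went from 16.6, 20.1 and 16.0 FPKM to 26.3, 26.8 and 19.4 in KO1, where 1 library fell within the WT range, and to 27.7, 26.6 and 24.5 in KO2. CRELD2, a secreted ER stress protein with disulfide isomerase-like motifs, stood at 12.6, 13.8 and 13.9 FPKM in WT, 14.8, 13.4 and 14.2 in KO1 and 12.4, 15.9 and 15.5 in KO2. Its groups overlapped (0.07 ± 0.09, adjusted p = 0.512, and 0.10 ± 0.09, adjusted p = 0.307), although it passed in KO2 when KO2 replicate 1 was left out (0.21, adjusted p = 0.0217).

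Proteins enter the ER through the SEC61 channel, and the signal peptidase removes their signal peptides. SEC11C, a catalytic subunit of signal peptidase, stood at 53.1, 48.5 and 47.5 FPKM in WT, 96.6, 107 and 111 in KO1 and 96.0, 102 and 94.4 in KO2, a rise with no overlap (log2 fold change 1.06 ± 0.06 and 0.96 ± 0.06). SEC61A1, the pore, rose from 57.3, 57.6 and 59.5 FPKM to 91.9, 89.0 and 87.4 in KO1 and 85.2, 86.4 and 87.3 in KO2 (0.61 ± 0.04 and 0.56 ± 0.04). SEC61B, its small partner, had 141 ± 13.8 FPKM in WT against 138 ± 7.23 in KO1 and 147 ± 5.99 in KO2, with overlapping groups (adjusted p = 0.735 and 0.422). SSR1, of the translocon-associated protein complex, rose in KO1 from 33.2 ± 2.35 to 39.0 ± 2.05 FPKM (adjusted p = 0.00424) and stood at 36.0 ± 0.314 in KO2 (adjusted p = 0.0924). Without WT replicate 1, both SSR1 (adjusted p = 0.0125) and SEC61B (0.0460) passed in KO2.

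ER-associated degradation removes proteins that fail to fold, and it held the only gene of the 32 that was lower by more than 2-fold. EDEM1 encodes a mannosidase-like protein that hands misfolded glycoproteins to the degradation channel and is itself known as an XBP1 target. It stood at 119, 112 and 125 FPKM in WT, at 29.5, 31.0 and 29.9 in KO1 and at 31.3, 29.3 and 29.0 in KO2. WT was 3.94 times KO1 and 3.98 times KO2, no libraries overlapped, and the log2 fold changes were -1.94 ± 0.05 (limma adjusted p = 3.76e-10) and -1.96 ± 0.05 (adjusted p = 6.24e-10). KO1 and KO2 did not differ beyond their spread (adjusted p = 0.861). With the strand of the reads unstated, antisense transcription over EDEM1 cannot be told apart from the gene itself. The 23 tested genes nearest to EDEM1 by RefSeq gene order (15 on one side and those up to the chromosome end on the other) had median log2 fold changes of -0.10 in KO1 and 0.05 in KO2. Its paralogues EDEM2 and EDEM3, named after their values were seen, stood at 15.2 ± 1.05 and 29.0 ± 1.45 FPKM in WT, 14.8 ± 0.312 and 24.5 ± 1.09 in KO1 and 18.3 ± 0.787 and 26.9 ± 0.685 in KO2.

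HERPUD1, a membrane scaffold of the degradation complex, rose from 10.3, 11.3 and 10.6 FPKM to 13.7, 14.2 and 14.8 in KO1 and 14.6, 15.2 and 14.5 in KO2, without overlap. DERL2, a component of the exit channel, rose from 8.76 ± 1.04 FPKM to 11.5 ± 0.597 and 10.99 ± 0.134. DERL1, its relative, stood at 29.1 ± 0.456, 31.4 ± 1.58 and 31.2 ± 1.29 FPKM (adjusted p = 0.0771 and 0.0971), and passed in KO1 without KO1 replicate 1 (0.0274). Although DERL1 was not called in the main fit, all its edited libraries lay above all WT libraries. SEL1L and SYVN1 encode the adaptor and the ubiquitin ligase HRD1 at the centre of this machinery. SEL1L had 19.7 ± 1.31 FPKM in WT against 21.8 ± 1.01 in KO1 (log2 fold change 0.14 ± 0.06, limma adjusted p = 0.0495) and 20.9 ± 0.403 in KO2 (adjusted p = 0.218). The edited libraries lay narrowly above all WT libraries, with a highest WT value of 20.56 and lowest values of 20.66 in KO1 and 20.69 in KO2. In KO1, SEL1L no longer passed when the fit left out WT replicate 2 (adjusted p = 0.198), KO1 replicate 2 (0.135), KO1 replicate 3 (0.132) or KO2 replicate 1, 2 or 3 (0.0666, 0.0664 and 0.0637), or after median centring (0.0647). SYVN1 stood at 9.46 ± 1.1, 9.78 ± 0.639 and 10.6 ± 0.891 FPKM with overlapping groups (adjusted p = 0.648 and 0.163), and passed in KO2 without WT replicate 2 (0.0362).

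Neither of the sensors among the 32 was called higher. ATF6 stood at 28.8, 27.0 and 27.2 FPKM in WT, 18.6, 19.6 and 19.6 in KO1 and 23.02, 23.1 and 23.2 in KO2, lowest in KO1, intermediate in KO2 and without overlap. It fell in both lines (log2 fold change -0.50 ± 0.04, limma adjusted p = 2.78e-06, and -0.25 ± 0.04, adjusted p = 0.000551). ERN1, which encodes IRE1, was the weakest transcript of the 32, at 4.398, 4.42 and 5.52 FPKM in WT, 5.52, 4.96 and 4.13 in KO1 and 5.87, 5.19 and 5.54 in KO2, with overlapping groups (adjusted p = 0.868 and 0.147); it passed in KO2 without WT replicate 3 (0.0438). XBP1, the transcription factor whose mRNA IRE1 splices and which itself carries ERSE, rose from 58.5, 57.6 and 54.7 FPKM to 76.2, 75.6 and 70.4 in KO1 and 70.6, 72.3 and 72.9 in KO2 (0.37 ± 0.04 and 0.33 ± 0.04). These values sum the spliced and unspliced forms, so splicing, like cleavage of ATF6, was not measured. The series measured transcripts only. HSPA5, HSP90B1, SSR1 and XBP1 also have pseudogenes in RefSeq, and how the authors' counting divided reads among them is not given in the sources used here.

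Read against the promoter elements shown above, 9 of the 10 genes with ERSE or ERSE-II rose in KO1 and 9 in KO2, the exception being CRELD2 in both. Of the 20 genes whose windows held no exact match to either, 13 were called higher and 2 lower in KO1, and 12 and 2 in KO2, where 35.6% and 38.1% of all tested genes rose. The median log2 fold changes were 0.50 and 0.54 with an exact match, and 0.33 and 0.32 without. TXNDC5, SEC11C and PPIB, all among the 7 of the 32 with the largest log2 fold change in each line, rose with no exact match to either element in their windows. The window of TXNDC5 does hold a match to UPRE. Tested genes outside the 32 with these elements mostly did not rise. Of 8 with ERSE, KO1 had 1 higher and 4 lower, and KO2 had 1 and 5. Of 9 with ERSE-II, each line had 1 higher and 5 lower, and the higher gene in KO1 passed the filter on low values through its KO1 libraries only. The presence of the letters is a description and shows no binding.

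Of the 32 genes, few differed between the edited lines. In KO2 against KO1, 3 of the 32 genes were higher and 0 lower by limma, where 18.3% of all tested genes were higher and 12.4% lower (30.6% in either direction). The libraries of the lines did not overlap for 8 genes that were higher and 4 that were lower in KO2, where 28.7% of all tested genes were higher and 18.7% lower (47.4% in all). HSPA5 was higher in KO2 (log2 fold change 0.33 ± 0.04, adjusted p = 0.000354), ATF6 was higher (0.25 ± 0.04, adjusted p = 0.00188) and P4HB was slightly higher (0.10 ± 0.03, adjusted p = 0.0334). SDF2L1 and MANF were close to the threshold, at 0.29 ± 0.10 (adjusted p = 0.0550) and 0.13 ± 0.04 (0.0537). SDF2L1 passed in a fit of only the groups compared (0.0102), with the filter at 5 FPKM (0.04997), and without WT replicate 1 (0.0220), WT replicate 3 (0.0134) or KO1 replicate 3 (0.0414), and MANF without KO2 replicate 1 (0.0283). P4HB no longer passed without KO1 replicate 1, 2 or 3 (0.0856, 0.0725 and 0.0716) or KO2 replicate 1 or 2 (0.119 and 0.118). CALR had a log2 fold change of -0.08 ± 0.03 (adjusted p = 0.0884) and was called lower in KO2 after median centring (-0.11, adjusted p = 0.0275) and quantile normalization (-0.19, adjusted p = 0.00123).

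HSPA5 lies on chromosome 9, where the genes around it moved too. The 30 tested genes nearest to it by RefSeq gene order (15 on each side) had a median log2 fold change of 0.40 in KO2 against KO1, with 21 higher and 0 lower, beside 0.33 for HSPA5 itself. Against WT the same neighbours had medians of -0.24 in KO1 and 0.20 in KO2, whereas HSPA5 was higher in both (0.71 and 1.04). Of the 32 genes, HSPA5 had the largest neighbour median in KO2 against KO1, and their part in its difference was not tested. For ATF6 on chromosome 1 the neighbour median was 0.04 (3 higher and 3 lower of 30), for P4HB on chromosome 17 it was 0.13 (5 higher and 2 lower of 30), and for SDF2L1 on chromosome 22 it was 0.08. Against WT, neighbour medians of the 32 genes ran from -0.24 to 0.34 in KO1 and from -0.02 to 0.38 in KO2. The highest in both lines were around SSR1, itself at 0.23 and 0.12. Around PDIA6 they were 0.28 and 0.32, around TXNDC5 0.23 and 0.21, and around CALR on chromosome 19 -0.06 and 0.02. The part of the neighbours in these changes was not tested.

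**Figure D4:**
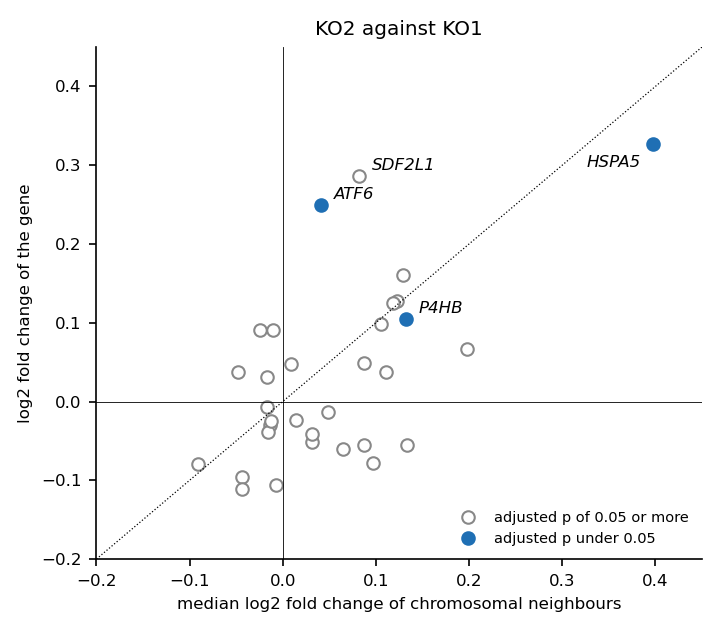
Log2 fold change of each of the 32 genes in KO2 against KO1 (y axis) against the median of its chromosomal neighbours in the same comparison (x axis), both on the log2(FPKM + 1) scale; filled points passed the test and the dotted line marks equal values. HSPA5 stands apart at 0.33 with a neighbour median of 0.40, while ATF6 at 0.25 has neighbours at 0.04.

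Related genes outside the 32 moved in both directions. The 7 further lists held 136 tested genes, of which 20 were chaperones outside the ER and so not of the same pathways. Of the 136, 58 were called higher and 42 lower in KO1, and 64 and 33 in KO2. Their share higher was 42.6% in KO1 and 47.1% in KO2, beside 35.6% and 38.1% of all tested genes, and their share lower, 30.9% and 24.3%, was near the 31.9% and 26.6% of all tested genes. The chaperones outside the ER had the largest share higher of the 7 lists, 60% in KO1 and 70% in KO2. Among 28 other ER folding factors, KO1 had 15 higher and 9 lower, and KO2 had 14 and 7. TMX4, a membrane-bound thioredoxin-related protein, went from 16.4 ± 1.37 FPKM to 36.4 ± 1.21 and 34.7 ± 1.07, FKBP11, a prolyl isomerase of secretory cells, from 18.5 ± 3.06 to 39.7 ± 2.32 and 39.1 ± 0.725, and DNAJC1, a membrane J-domain protein, from 10.7 ± 1.13 to 19.8 ± 3.21 and 17.9 ± 0.616.

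Among 21 other translocation genes, KO1 had 7 higher and 7 lower, and KO2 had 11 and 5. In KO1 these are 33.3% each, near the 35.6% and 31.9% of all tested genes, and in KO2 52.4% and 23.8%, beside 38.1% and 26.6%. The signal peptidase subunit SPCS3 rose from 49.4 ± 4.91 FPKM to 92.8 ± 11 and 77.1 ± 5.01, and SRPRB, of the signal recognition particle receptor, from 17.7 ± 0.9 to 30.9 ± 0.671 and 29.1 ± 1.47, while SEC61A2, the paralogue of SEC61A1, fell from 7.31 ± 0.302 to 3.58 ± 0.055 and 4.81 ± 0.507. Among 17 genes of N-glycan transfer and trimming, KO1 had 7 higher and 7 lower, and KO2 had 7 and 4, or 41.2% and 41.2% in KO1 and 41.2% and 23.5% in KO2. The oligosaccharyltransferase subunits TUSC3 and RPN1 rose, from 5.23 ± 0.647 to 11.1 ± 1.46 and 9.75 ± 0.466 FPKM and from 107 ± 2.83 to 146 ± 1.56 and 163 ± 2.16, and the deglycosylating enzyme NGLY1 fell from 59.8 ± 4.37 to 37.8 ± 2.77 and 38.7 ± 1.25. Among 21 other degradation genes, KO1 had 8 higher and 7 lower, and KO2 had 10 and 5 (38.1% and 33.3%, and 47.6% and 23.8%), with the signal peptide peptidase HM13 higher (29.8 ± 2.58, 44.4 ± 2.58 and 43.9 ± 2.81 FPKM), VIMP (selenoprotein S) higher (21.5 ± 0.932, 29.0 ± 2.69 and 31.9 ± 0.55) and UBXN4 lower (75.9 ± 2.89, 59.6 ± 2.61 and 44.9 ± 0.227).

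Among 17 other regulators of the response, KO1 had 3 higher and 6 lower, and KO2 had 3 and 5. The share higher was 17.6% in both, where 35.6% and 38.1% of all tested genes were higher, and the share lower, 35.3% and 29.4%, was near the 31.9% and 26.6% of all tested genes. MAP3K5, a stress kinase that acts below IRE1, rose from 2.88 ± 0.248 FPKM to 6.39 ± 0.622 and 5.48 ± 0.177, CREBZF fell from 20.8 ± 1.14 to 14.7 ± 1.73 and 12.9 ± 0.228, and PPP1R15A, which restores translation after PERK signalling, fell from 10.3 ± 0.671 to 7.28 ± 0.462 and 6.85 ± 0.337. The PERK arm genes that follow were named after their values were seen. EIF2AK3 had 7.76 ± 0.186 FPKM in WT against 9.97 ± 0.375 in KO1 (log2 fold change 0.32 ± 0.06, limma adjusted p = 0.000779) and 7.52 ± 0.508 in KO2 (adjusted p = 0.580). DDIT3, which encodes the stress factor CHOP, stood at 4.87 ± 0.555, 4.202 ± 0.0966 and 5.501 ± 0.735 FPKM (adjusted p = 0.138 and 0.204 against WT).

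Among 12 amino acid targets of ATF4, KO1 had 6 higher and 2 lower, and KO2 had 5 and 4, where 35.6% and 38.1% of all tested genes were higher and 31.9% and 26.6% lower. ASNS, asparagine synthetase, went from 16.0 ± 1.91 FPKM to 46.6 ± 1.53 and 28.7 ± 0.399, PHGDH, the first enzyme of serine synthesis, from 71.4 ± 5.5 to 131 ± 2.2 and 95.0 ± 3.06, and DDIT4, an inhibitor of mTORC1, from 124 ± 5.43 down to 20.2 ± 0.992 and 33.7 ± 6.39. Of 20 chaperones outside the ER, KO1 had 12 higher and 4 lower, and KO2 had 14 and 3. These are 60% higher and 20% lower in KO1, and 70% and 15% in KO2. The share higher among the 32 ER genes was 71.9% in KO1 and 68.8% in KO2, so a rise was not particular to chaperones of the ER. HSPA8, the constitutive cytosolic HSP70, went from 508 ± 28.8 FPKM to 920 ± 41.9 and 933 ± 34.8, its cochaperone DNAJA1 from 172 ± 3.96 to 328 ± 10.5 and 331 ± 17, and HSP90AA1 from 615 ± 58.6 to 983 ± 53.7 and 962 ± 32.2.

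**Figure D5:**
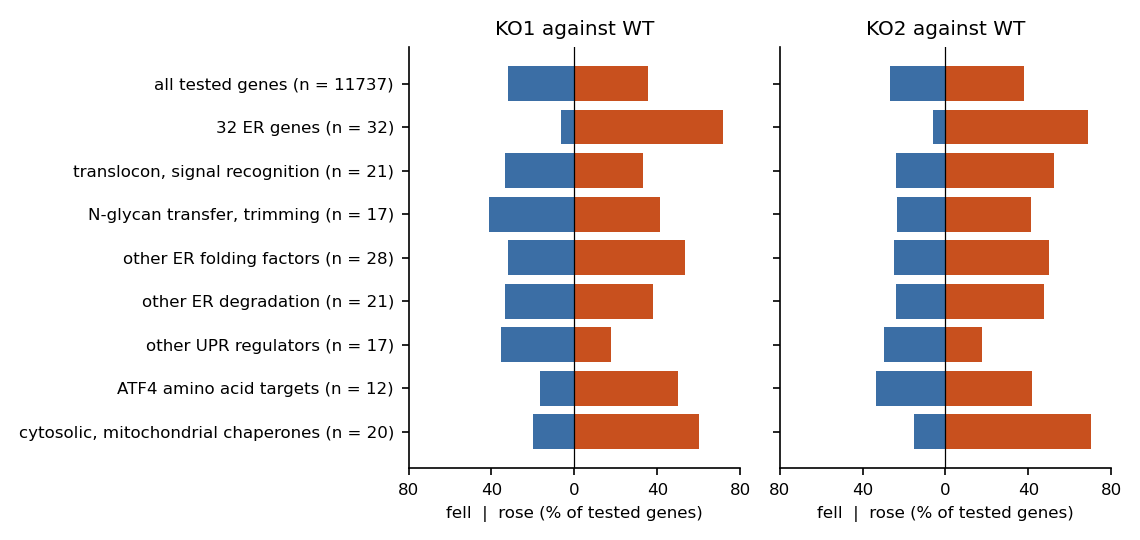
Percent of tested genes that rose (orange, to the right) or fell (blue, to the left) at an adjusted p under 0.05 in KO1 and KO2 against WT, for all tested genes, the 32 ER genes and the 7 further lists, with the number tested in brackets. The 32 ER genes show 71.9% rising in KO1 and 68.8% in KO2, beside 35.6% and 38.1% of all tested genes. The cytosolic and mitochondrial chaperones show 60% and 70%.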

How the data were processed

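The authors deposited 1 table of FPKM values with a column per library; per the submitters' processing notes the tools were STAR 2.5.0b, Cufflinks 2.2.1 and bedtools 2.7.0 and the build hg19, with no roles stated, and per the labels' protocols libraries came from an mRNA kit. The sources used here do not give the annotation, strandedness or scaling. Of 26228 rows, 38 with text in place of values were left out. Genes with at least 1 FPKM in 3 or more libraries were tested on log2(FPKM + 1) with limma 3.58.1 (R 4.3.3), all 9 libraries in 1 fit, 1 mean per group, a mean-variance trend and no covariates, with no count model. The threshold was a Benjamini-Hochberg adjusted p of 0.05 over all tested genes. The fit was also run on simulated data with known changes in a small share of the genes, whereas 67.5% of tested genes were called in KO1 here. That run checks the code and not the calls made on these data. Groups and replicate numbers come from the sample titles, and 0 pairs of libraries were identical.

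The 32 genes, their roles and the further lists were chosen with earlier results of these data known. Named genes were EZH2, the 32 genes and, per further list, the 3 with the largest mean change among those called in the same direction in both lines; exceptions are marked. Symbols were looked up as such, then as older names. Alternatives tried were another pseudocount, other filters, median centring, quantile normalization, only the groups compared, a replicate block, no trend and leaving out each library. Without a protein table, protein sequence features were not used here.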

Additional observations from a re-analysis of the deposited data

Results flagged for a closer look

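Of the 32 genes, 3 differed between the edited lines by the test of that difference, which is also the test of whether their changes from WT differ. HSPA5 was higher in KO2 by 0.33 on the log2 scale, with all KO2 libraries above all KO1 libraries and a neighbour median of 0.40 on chromosome 9. ATF6 was higher in KO2 by 0.25, since it lay less far below WT there than in KO1. P4HB was higher in KO2 by 0.10, a difference that did not hold under 9 of 17 alternatives. The 3 are 9.38% of the genes described, where 30.6% of all tested genes differed between the lines.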

How the results depend on the processing

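Over 17 alternatives, the number of the 32 genes that rose ran from 22 to 24 in KO1 and from 21 to 23 in KO2, 2 fell under each, and the median log2 fold change ran from 0.35 to 0.39 in KO1 and from 0.33 to 0.39 in KO2. Of the 25 genes called in KO1, 24 were called under every alternative (all but SEL1L), and of the 24 called in KO2, 23 were (all but P4HB). In KO2 against KO1, HSPA5 and ATF6 passed under every alternative and P4HB did not; the number lower went from 0 to 1 (CALR) under median centring and under quantile normalization, and the median went from 0.01 to -0.0219 and -0.0231. The median of all tested genes in KO1 went from 0.02 to -0.00747 after quantile normalization.

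Replicate numbers did not pair the libraries: deviations of same-numbered libraries correlated from -0.29 to 0.32 and those of other pairs from -0.27 to 0.34. With the replicate number as a block, SEL1L in KO1 (adjusted p = 0.0661), P4HB in KO2 (0.0565) and P4HB in KO2 against KO1 (0.0684) were no longer called, and no other call changed. SEL1L in KO1 was also not called with no filter on low values (0.0602), with only the groups compared (0.0893) or with no mean-variance trend (0.0604). P4HB was not called with no trend in KO2 (0.0808), nor in KO2 against KO1 with no trend (0.0903), median centring (0.144) or quantile normalization (0.0715). DERL1 was called in KO1 after quantile normalization (0.0230).

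Signs turned only for differences far from the threshold (adjusted p of 0.454 or more). PDIA3 in KO2 against KO1 went to -0.00294 under median centring and -0.00161 under quantile normalization, and ERN1 in KO1 to -0.0272 under quantile normalization. Leaving out each library in turn, log2 fold changes in KO1 ran from -0.116 to 0.016 for DNAJB9, from -0.0899 to 0.0476 for SEC61B, from -0.0167 to 0.13 for SYVN1 and from -0.0582 to 0.116 for ERN1. In KO2 against KO1 they ran from -0.0517 to 0.00637 for HSP90B1, from -0.0479 to 0.0171 for PDIA6, from -0.0199 to 0.204 for FKBP2, from -0.025 to 0.143 for CRELD2, from -0.0469 to 0.00663 for EDEM1 and from -0.0461 to 0.0263 for DERL1. The cause of these turns was not tested. Depth in reads is unknown, so no counting error is given for weak transcripts such as ERN1. The search for ER retention signals in protein sequences was not run.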

Other observations

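ERSE and ERSE-II were also found in promoters of genes outside the 32. Among 8 such genes with ERSE that were tested, KO1 had 1 higher and 4 lower, and KO2 had 1 and 5, with median log2 fold changes of -0.18 and -0.19. The gene that rose in both was SERP1, which encodes a small ER stress-associated membrane protein (79.6 ± 0.558 FPKM in WT against 93.9 ± 3.36 in KO1 and 86.3 ± 2.29 in KO2). ERO1B, an ER oxidase, fell from 6.41 ± 0.156 FPKM to 4.59 ± 0.537 and 4.83 ± 0.152, and FICD, an enzyme that modifies BiP, stood at 2.22 ± 0.361, 1.96 ± 0.536 and 1.97 ± 0.753 (limma adjusted p = 0.556 and 0.521). Among 9 tested genes with ERSE-II, 1 was higher and 5 lower in each line, but these were not all the same genes. The higher gene was PLS3 in KO1 and SETD3 in KO2. Of the lower genes, CAMTA1 was called in KO1 alone and ZNF143 in KO2 alone. PLS3 (mean FPKM: WT 0.0265, KO1 1.25, KO2 0.071) passed the filter on low values through its KO1 libraries only. Its rise in KO1 was therefore fixed by the filter and cannot be read as a result for ERSE-II genes. The ERSE-II gene GYS1, glycogen synthase, fell from 27.2 ± 2.75 FPKM to 13.3 ± 0.683 and 14.7 ± 1.07. These genes were named after their values were seen, and for comparison 31.9% of all tested genes fell in KO1 and 26.6% in KO2.

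MZB1, known from plasma cells as a partner of GRP94, was well expressed in this T-cell line, with 88.2 ± 5.28 FPKM in WT against 82.4 ± 5.1 in KO1 and 100.2 ± 1.53 in KO2. CD79A, a B-cell receptor component, stood at 27.5 ± 2.57, 54.9 ± 5.52 and 20.99 ± 1.65 FPKM, while CD79B and JCHAIN each had a mean under 1 FPKM in every group. These marker genes too were named after their values were seen.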
